A study of Mus musculus with 502 samples.

Results

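T cell receptor variable segments were followed in Cd45+ immune cells of the mouse kidney. Every row of the count table whose name marks an alpha variable segment (Trav) or a beta variable segment (Trbv) was taken. These were 35 Trbv rows and, for Trav, 55 rows without a copy letter, 39 with the letter d and 35 with n, together 0.352% of the 46603 gene rows. The rows were chosen by name alone, without their values. The cells came from CD1 mice, an outbred stock, about 3 weeks old. Fresh kidneys were dissociated at once, and the others were kept whole in the preservative HTS-FRS at 4 °C before dissociation and sorting. Per the methods, both kidneys of a mouse were used through day 2, and a smaller part of them at day 3 and day 4. Fresh tissue gave 75 and 81 cells in a pair of library pools, and the stored kidneys gave 76 (6 h), 75 (day 1), 78 (day 2), 82 (day 3) and 35 cells (day 4). No genotype or drug separated the groups, so that storage time was the labelled difference. The methods pooled material of the same animal at each timepoint, and no label ties a cell to an animal, so each timepoint is 1 sample and no test was made between timepoints. The titles carry 3 library pool numbers, read here as pools: IM793 carried the smaller set of fresh cells with every cell of 6 h and day 2, IM834 the larger set with those of day 1 and day 3, and day 4 was spread over both and IM790.

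The antigen receptor of most T cells is a pair of alpha and beta chains. A thymocyte assembles each chain gene by joining a variable segment to a joining segment, with a diversity segment between them in the beta chain, and the joined exon is spliced to a constant region. The variable segment encodes the leader peptide and the first and second loops that contact the peptide-MHC complex, and its last codons open the third loop. A mature T cell therefore transcribes mainly the segment it has rearranged. Beta rearrangement is usually limited to a single productive allele, whereas both alpha alleles can rearrange in the same cell. The Trav locus also holds the delta segments, and in many mouse strains its middle portion is present in extra copies whose names carry the letters d and n.

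The beta segments lie on chromosome 6 and the alpha segments on chromosome 14 of GRCm38, and all rows but 1 were matched to GENCODE M21. The row Trav7n-6-1 had no match and 0 reads. Names are written here with the hyphens of that annotation, where the count table has points. The coding sequences of Trbv13-2 and of its upstream neighbour Trbv12-2 are shown because they were the beta segments called in the most cells. They lie on the plus strand at chr6:41121396-41121832 and chr6:41118851-41119364, 2.55 kb apart, each with a leader exon and a variable exon, and their last 300 coding bases are printed. The capitals mark the Cys-Ala-Ser codons that open the third loop.
Trbv13-2: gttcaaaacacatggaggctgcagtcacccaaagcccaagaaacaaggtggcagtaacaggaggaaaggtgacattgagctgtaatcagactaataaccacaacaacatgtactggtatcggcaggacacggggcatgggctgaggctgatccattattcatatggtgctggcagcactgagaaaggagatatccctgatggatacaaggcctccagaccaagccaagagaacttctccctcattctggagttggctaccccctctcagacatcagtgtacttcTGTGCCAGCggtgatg
Trbv12-2: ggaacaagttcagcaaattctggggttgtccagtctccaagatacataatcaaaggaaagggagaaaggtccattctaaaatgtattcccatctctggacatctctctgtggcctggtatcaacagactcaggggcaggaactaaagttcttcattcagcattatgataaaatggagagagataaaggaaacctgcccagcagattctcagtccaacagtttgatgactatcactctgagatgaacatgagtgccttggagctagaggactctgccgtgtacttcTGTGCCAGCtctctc
Their coding bases were 56.8% identical, so reads of one are readily told from reads of the other.

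Many alpha segments are far more alike. The Trav14-3 set is shown because copies of it were called together in the same cells. The copies are Trav14-3 (chr14:53763173-53763694), Trav14d-3-dv8 (chr14:53078452-53079045) and Trav14n-3 (chr14:53370077-53370575), all on the plus strand of GRCm38, with 361 coding bases each that differ at 16 positions. The last 300 bases are printed, with the 12 differing positions among them in capitals.
Trav14-3: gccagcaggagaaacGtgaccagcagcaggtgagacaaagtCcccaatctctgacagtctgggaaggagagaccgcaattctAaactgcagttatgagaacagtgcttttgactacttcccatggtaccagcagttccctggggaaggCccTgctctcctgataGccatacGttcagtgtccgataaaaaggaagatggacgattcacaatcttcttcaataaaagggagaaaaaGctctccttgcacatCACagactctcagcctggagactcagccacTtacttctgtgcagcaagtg
Trav14d-3-dv8: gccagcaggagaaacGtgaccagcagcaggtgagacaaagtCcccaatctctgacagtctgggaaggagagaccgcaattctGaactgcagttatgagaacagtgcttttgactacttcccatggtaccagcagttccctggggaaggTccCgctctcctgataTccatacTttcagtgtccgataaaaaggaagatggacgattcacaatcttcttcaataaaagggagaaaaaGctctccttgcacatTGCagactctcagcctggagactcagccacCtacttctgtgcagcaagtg
Trav14n-3: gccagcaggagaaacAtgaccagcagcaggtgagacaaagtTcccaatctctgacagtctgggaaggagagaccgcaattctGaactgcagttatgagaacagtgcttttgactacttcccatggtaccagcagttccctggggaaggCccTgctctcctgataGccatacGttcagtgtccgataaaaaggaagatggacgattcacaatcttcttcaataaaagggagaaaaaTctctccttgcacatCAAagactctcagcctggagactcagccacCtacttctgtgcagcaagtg
Identity over all coding bases was 97.2% between Trav14-3 and either copy and 96.7% between the copies. The extreme case is Trav11, the segment of the invariant alpha chain of natural killer T cells (chr14:53519303-53519859, plus strand), shown, again by its last 300 coding bases and with no capitals, because almost no read was assigned to it.
Trav11: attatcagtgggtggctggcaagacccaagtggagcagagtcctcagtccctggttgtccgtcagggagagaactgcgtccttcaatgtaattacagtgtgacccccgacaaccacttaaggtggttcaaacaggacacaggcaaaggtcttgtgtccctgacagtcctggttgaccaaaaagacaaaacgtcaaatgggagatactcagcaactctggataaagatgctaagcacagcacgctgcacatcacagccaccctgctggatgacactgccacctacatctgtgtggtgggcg
Trav11d (chr14:52824357-52824912) was 100% identical to it over their shared coding bases, of which Trav11 has 343 and Trav11d 342.

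T cells were selected by the CD3 genes alone, as cells with a read in at least 2 of Cd3d, Cd3e and Cd3g, which encode the signalling chains that carry the receptor to the surface. This gate held 22.5% of the 502 cells, 56 fresh (11 of pool IM793 and 45 of IM834) and 57 from stored kidneys, called preserved below. Storage for 6 h gave 20 of the preserved gated cells, as did day 2, whereas day 1 gave 6, day 3 gave 8 and day 4 gave 3, the last all of pool IM790. All 3 CD3 genes were read in 82 gated cells. Total counts of gated cells ran from 22125 to 1400215 with a median of 708076. Doublets were not called. Of 317 index pairs 55.8% occurred in more than 1 pool, and 0 cells shared a full name. A read of the B cell gene Cd79a was present in 5 gated cells, of the macrophage gene C1qb in 4, and of the myeloid gene Lyz2 in 22, and the shares were also computed without the 8 cells with Cd79a or C1qb. Other receptor components were widely read in the gate: Lck, the kinase that starts receptor signalling, in 97 cells, the adaptor gene Lat in 98, the kinase gene Zap70 in 55 and the zeta chain gene Cd247 in 68. The genes of ongoing rearrangement, Rag1, Rag2, Dntt and Ptcra, had 0 reads in the gated cells, which allows a share of cells with a read of up to 2.65%.

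Segment reads were nearly confined to the gate. Trav rows held 11046 reads over all cells and Trbv rows 33258, and the gated cells held 97.6% and 97.5% of them. A segment was called in a cell from 5 reads upward. Outside the gate 6 of 389 cells had a called segment (1.54%, exact 95% interval 0.568 to 3.33%), at a median total count of 681952. None of the 77 B cells (Cd79a and Cd79b read) had one, which allows a share of up to 3.90%, and 2 myeloid cells had one, 0.826% of that class (0.100 to 2.95%). The 37 NK or innate lymphoid cells, named from at least 2 of 7 markers such as Ncr1 and Gata3, had one in 3. In 1 of those 3, a cell of 6 h, there were 521 reads of Trbv14, 75 of Trav6-5 and 1383 of Cd4. Both chains were called in 3 cells outside the gate, that one, another of the innate class (day 1) and a fresh cell of no class, and each of them had a read of 1 CD3 gene. The constant genes behaved differently from the segments in this class. Trbc1 or Trbc2, the beta constant genes, was read in 30 of the 37 cells (81.1%, 64.8 to 92.04%) and a Trbv row in 3 (8.11%, 1.70 to 21.9%). In gated cells the corresponding shares were 99.1% and 90.3%.

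Beta segments were recovered in more gated cells than alpha segments. At least 1 Trbv segment was called in 89.4% of the gated cells (exact 95% interval 82.2 to 94.4%), and at least 1 Trav segment in 71 cells or 62.8% (53.2 to 71.7%). Both chains were called in 70 cells, Trbv alone in 31, Trav alone in 1 and neither in 11. With any read counted in place of 5, the gap between the chains was similar for segments and constant genes. A Trav row was then read in 74.3% of the gated cells and a Trbv row in 90.3%. Trac, the alpha constant gene, was read in 95 cells (84.1%) and Trbc1 or Trbc2 in all but 1 (99.1%). Among the 93 cells with at least 5 Trac reads a Trav segment was called in 68 (73.1%, 62.9 to 81.8%), and among those with at least 5 beta constant reads a Trbv segment was called in 91.8% (85.04 to 96.2%). The median gated cell had 26 Trav reads, with a range of 0 to 728, and Trbv reads ranged from 0 to 1333. Scaled to the total of the cell (rpm), the medians were 43.1 for Trav and 343.9 for Trbv. Per kilobase of exon and scaled to the total (rpkm), the summed Trav rows stood at 342 against 622 for Trac, a ratio of 0.551, and the summed Trbv rows at 1060 against 1694 for the beta constant genes, a ratio of 0.626. The Spearman correlation over the gated cells was 0.681 between Trav and Trac reads, 0.672 between Trbv and beta constant reads, and 0.388 between Trav and Trbv reads, where the points share library depth.

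**Figure D1:**
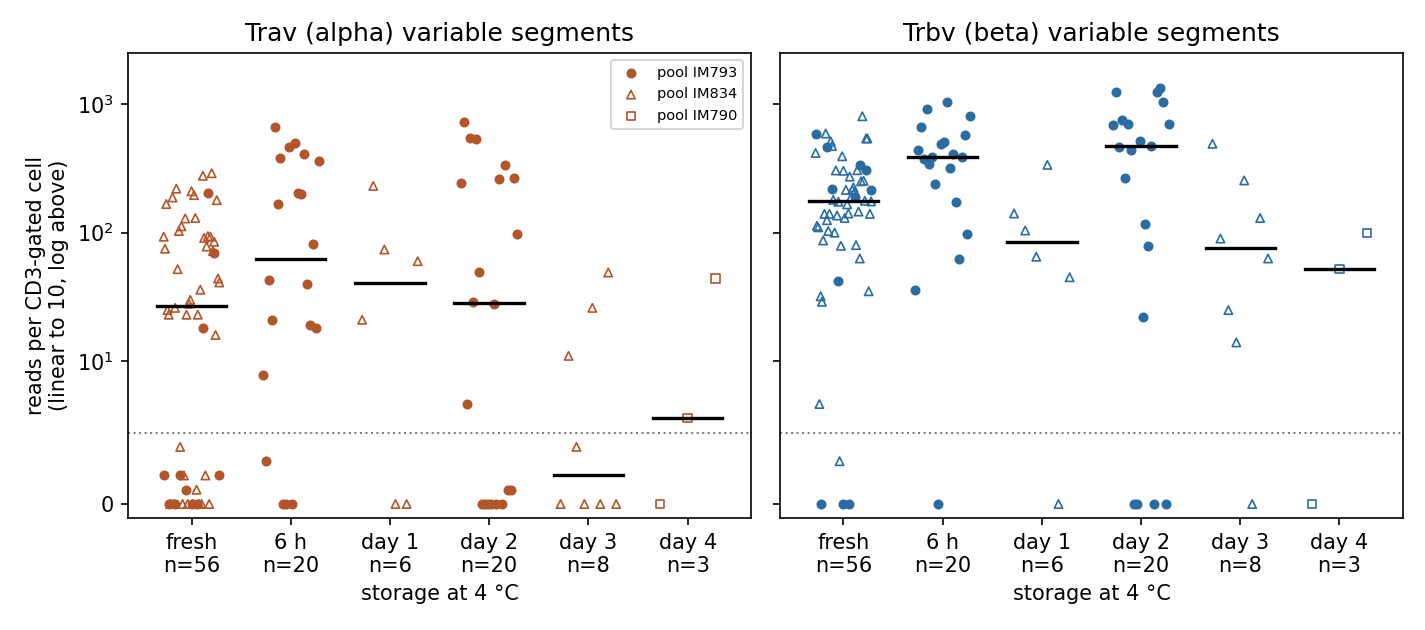
Reads on Trav rows (left) and Trbv rows (right) in each CD3-gated cell, 56 fresh and 57 preserved, by storage time at 4 °C, on an axis that is linear to 10 reads and logarithmic above. Each point is a cell, its shape gives the library pool, black bars are medians and the dotted line is at 5 reads; the Trbv medians lie above the Trav medians at every timepoint.

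The 11 gated cells with neither chain called had total counts from 22125 to 1162178, with a median of 671212. Of them 8 had at least 5 reads of a beta constant gene and 2 at least 5 of Trac. A read of Ncr1, the NK cell receptor gene, was present in 3, of Cd79a in 2, and at least 5 reads of gamma or delta variable segments in 3. The cell among the 11 with the most beta constant reads, of day 2, had 3068 of them, 7 Trac reads and no Trbv call.

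Over storage time the Trbv share stayed at 80% or above through day 3, and the counting intervals of the timepoints overlapped. Trbv was called in 52 of 56 fresh cells (92.9%, 82.7 to 98.02%), after 6 h in 19 of 20, after 1 day in 5 of 6, after 2 days in 16 of 20 (80%, 56.3 to 94.3%), after 3 days in 7 of 8 and after 4 days in 2 of 3. Trav was called in 35 of 56 fresh cells (62.5%, 48.5 to 75.1%), after 6 h in 16 of 20 (80%, 56.3 to 94.3%), after 1 day in 4 of 6, after 2 days in 12 of 20 (60%, 36.1 to 80.9%), after 3 days in 3 of 8 (37.5%, 8.52 to 75.5%) and after 4 days in 1 of 3. Taken as a whole, preserved cells had Trav called in 36 of 57 (63.2%, 49.3 to 75.6%) and Trbv in 49 of 57 (85.96%, 74.2 to 93.7%). The shares of the fresh cells of the pools stood further apart than those of fresh and preserved cells did, although their intervals overlapped. Trav was called in 3 of 11 fresh cells of pool IM793 (27.3%, 6.02 to 60.97%) and in 32 of 45 of pool IM834 (71.1%, 55.7 to 83.6%), and Trbv in 8 of 11 and in 44 of 45. The median fresh cell had 2 Trav reads in IM793 and 41 in IM834, at median total counts of 708743 and 528731, so the pool with fewer alpha reads was the deeper one. At least 5 reads of gamma constant genes, which mark gamma-delta T cells and are transcribed in some other T cells, or a read of Ncr1 were present in 3 of the 11 fresh cells of IM793, all without a Trav call, and in 0 of the 45 of IM834. Without them Trav was called in 3 of 8 fresh cells of IM793 (37.5%, 8.52 to 75.5%). Set against fresh cells of its own pool, the Trav share was higher at 6 h and at day 2 and lower at day 1 and day 3, with overlapping intervals in each case.

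**Figure D2:**
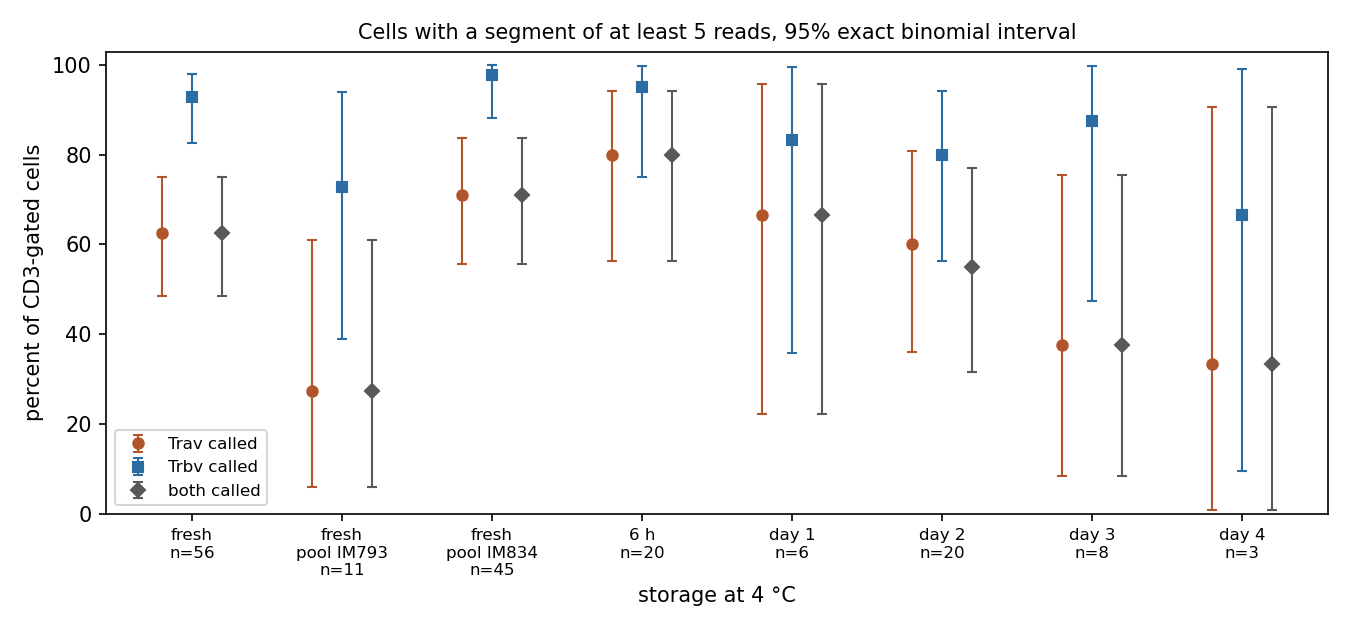
Percent of CD3-gated cells with a called Trav segment, a called Trbv segment, or both, by storage time at 4 °C, with fresh cells also shown by library pool. Points are shares and bars are exact binomial 95% intervals; the fresh Trav share is 27.3% in pool IM793 and 71.1% in pool IM834, and the Trbv share lies above the Trav share in every group.

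Summed over gated cells, both chains varied between timepoints, and the value furthest from fresh was that of Trav at day 3. In fresh cells the summed Trav rows stood at 111.3 CPM (counts scaled to the total of the sum) and Trbv at 381 CPM. The 6 h cells stood at 191.9 and 443 CPM, those of day 1 at 110.8 and 198.6, those of day 2 at 176.9 and 571, and those of day 3 at 17.03 (exact Poisson 95% interval 13.7 to 20.9) and 202.3. The log2 ratio of Trav to fresh was 0.79 (6 h), -0.01 (day 1), 0.67 (day 2) and -2.71 (day 3). That of Trbv was 0.22, -0.94, 0.58 and -0.91 in the same order. With TMM scaling, which shifted every log2 ratio of 6 h by -0.30 and of day 1 by -0.39, the 6 h Trbv ratio turned to -0.08, and with DESeq2 size factors the day 1 Trav ratio turned to 0.13. A single cell gave 59.8% of the Trav and 48.7% of the Trbv reads of day 1, and without the cell with the most reads of the chain these sums fell to 56.5 and 130.03 CPM, log2 ratios of -0.98 and -1.55. Against fresh cells of the same pool the Trav ratios became 2.25 at 6 h and 2.13 at day 2, since the summed Trav rows were at 40.3 CPM in fresh cells of IM793 and at 132.6 CPM in those of IM834. A single fresh cell gave 68.3% of the Trav reads of IM793, and without it the sum was 14.4 CPM and the ratios 3.74 and 3.62. The CD3 genes differed between these pools in the same direction (1208 and 2880 CPM), and against fresh cells of the same pool their ratios were 0.86 at 6 h and 0.72 at day 2, those of Trac 0.58 and 0.30, and those of Trbv 0.47 and 0.84. The summed Trav rows of day 3 rested on 90 reads of 8 cells, 54.4% of them from 1 cell, and 1 cell gave 46.02% of the Trbv reads. Without the cell in question the day 3 ratios were -3.59 for Trav (9.21 CPM) and -1.66 for Trbv (120.4 CPM). In the day 3 cells Trac was also lower than in fresh cells, at 359 against 752 CPM, with 66.8% of its reads from 1 cell and 150.4 CPM without it. The beta constant genes stood at 486 against 1029 CPM and the CD3 genes at 2306 against 2494 CPM. Cell by cell, both the share of cells with a Trav call and the level in those cells were lower at day 3: its 3 called cells had 27.6, 57.5 and 58.8 Trav rpm, and the 35 called fresh cells had 29.7 to 579 with a median of 128.9, so that the ranges overlapped. The gamma constant genes at 5 reads or Ncr1 were present in 4 of 8 day 3 cells (50%) against 0 of 45 fresh cells of the same pool, and those 4 were among the 5 day 3 cells without a Trav call. Such cells were 6 of 20 at 6 h and 2 of 20 at day 2, beside the 3 of 11 fresh cells of their pool, and 1 of 6 at day 1. Without them Trav was called in 3 of 4 day 3 cells (75%, 19.4 to 99.4%) and in 35 of 53 fresh cells (66.04%, 51.7 to 78.5%), and the day 3 ratios became -1.61 for Trav and 0.20 for Trbv.

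Single segments in these sums rested on few cells. With at least 50 reads in both sums, 20 segments could be compared for the 6 h cells, 5 for day 1, 13 for day 2 and 5 for day 3. At 6 h 14 of the 20 differed by at least 2-fold from the whole of the fresh cells, most of which were of the other pool, IM834. Of all 7152 genes compared 45.2% did so. The day 1 cells had 5 of 5 segments past 2-fold against 52.6% of all genes, the day 2 cells 7 of 13 against 53.4%, and the day 3 cells 5 of 5 against 52.7%. Segments below 50 reads in a sum, including those absent from a small stored group, could not enter these counts or the medians that follow. The same filter held for all genes. The median log2 ratio was 0.90 over the 20 segments of 6 h and 0.19 over all genes. The same pair of medians was 1.26 and 0.63 (day 1), 1.55 and 0.15 (day 2), and -1.11 and 0.44 (day 3). Ranks are given against all fresh cells and only among the segments compared, so segments that fell below 50 reads are not ranked. Trbv3 was called in 5 fresh cells and in 0 of 20 at 6 h. Trbv1 was called in 4 fresh cells and in 0 of 20 at day 2. Trbv16 was called in 6 fresh cells, in 0 of 6 at day 1 and in 0 of 8 at day 3. Trbv15 had the highest ratio at 6 h (5.11 on the log2 scale, 87.4 against 2.54 CPM) and at day 2 (4.80, 70.5 CPM). Against fresh cells of the same pool, IM793, where Trbv15 stood at 10.98 CPM, these ratios were 2.99 and 2.68, and at day 2 Trbv16 was then higher (2.73). Several segments compared at 6 h and day 2 had 0 reads in those fresh cells, so that they have no such ratio and no same-pool rank. Among them was Trbv31, with 1078 reads at 6 h and 468 at day 2. Trbv15 was called in 3 cells at 6 h with 386, 437 and 807 reads, in 2 at day 2, where 1 cell gave 98.6% of its reads, and in 1 fresh cell with 81 reads. Trbv16 was lowest at 6 h, at -1.80, called in 1 cell there (9.22 CPM) and in 6 fresh cells (31.99 CPM). Against the same pool it was -1.47, and Trav5-4 was lower (-2.32). At day 1 Trav12-1 (1 cell) and Trbv13-2 (4 cells) were highest, both at 1.97, and against the same pool they were 1.596 and 3.01. Trbv12-2 was lowest there (-1.16, 1 cell with 54 reads). Trbv12-2 was also lowest at day 2, at -0.92, or -0.16 against fresh cells of the same pool, where Trbv3 was lower (-0.51). Trbv13-3 was highest at day 3 (2.51, 3 cells) and Trbv13-1 lowest (-1.54, 1 cell with 52 reads), where against the same pool Trbv12-2 (-1.55) was lower than Trbv13-1 (-1.45).

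Beta segment use was broad, with Trbv13-2 in front. All 21 Trbv rows with a read were called in a gated cell, 20 of the 22 annotated as functional and 1 of 13 pseudogenes. Trbv13-2 was called in 26 gated cells and was the dominant Trbv row, the one with the most reads in the cell, in 18. It was called in 9 of 56 fresh cells (16.1%, 7.62 to 28.3%), with 6 to 337 reads and a median of 63. It was called after 6 h in 6 of 20, after 1 day in 4 of 6, after 2 days in 4 of 20, after 3 days in 3 of 8 and after 4 days in 0 of 3 cells. Over preserved cells that made 17 of 57 (29.8%, 18.4 to 43.4%), an interval that overlaps the fresh one. Trbv12-2 followed with 15 cells, Trbv16 with 11, Trbv13-1 and Trbv5 with 10 each, Trbv3, Trbv31 and Trbv13-3 with 7 each, and Trbv15, Trbv1 and Trbv4 with 6 each. Trbv3 was dominant in all 7 of its cells and Trbv1 in all 6, whereas Trbv12-2 was dominant in 5 of 15. The 3 rows of family 13 were called in 42 cells and held 26.4% of the Trbv reads of gated cells. Dominant Trbv rows numbered 18 in 52 fresh cells and 17 in 49 preserved cells, and 15 were found in both, 83.3% of the fresh list and 88.2% of the preserved list. The commonest dominant row took 13.5% of the fresh cells and 22.4% of the preserved cells.

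**Figure D3:**
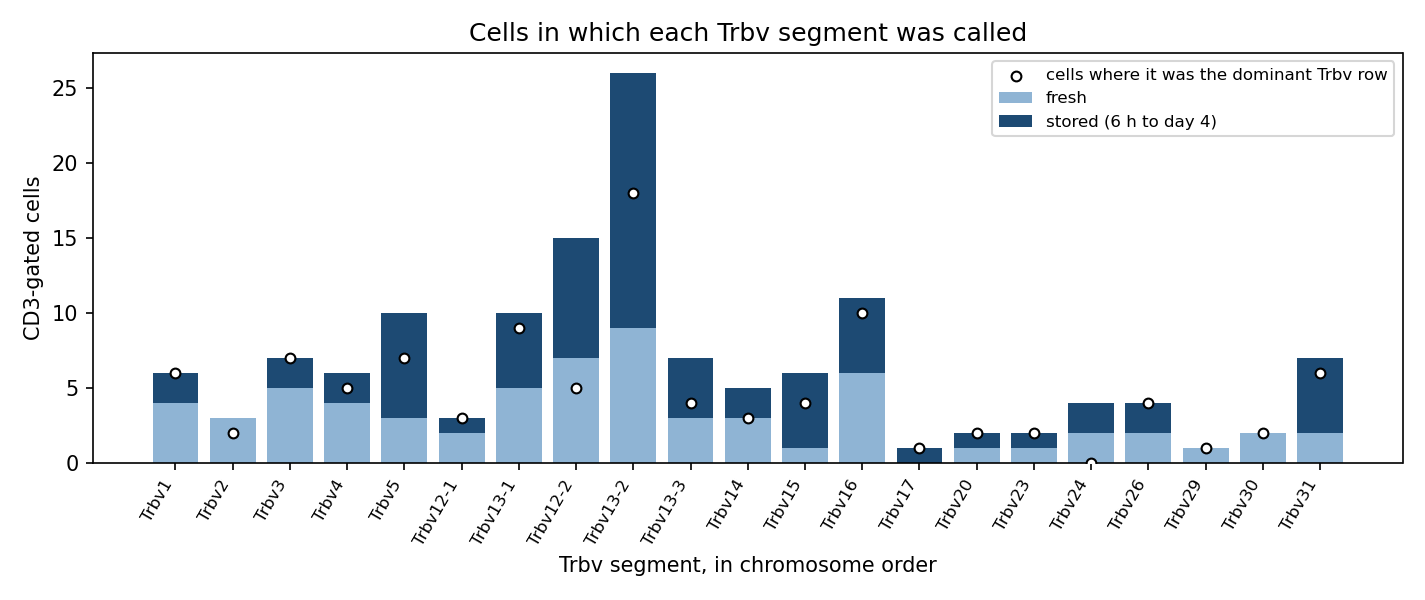
Number of CD3-gated cells in which each of the 21 Trbv segments with a read was called (at least 5 reads), in chromosome order, split into fresh and stored kidneys; white circles give the cells in which it had the most Trbv reads. Trbv13-2 leads with 26 cells, and Trbv24, an annotated pseudogene, was called in 4 cells and dominant in 0.

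Alpha segment use was spread more thinly. A read was found for 69 Trav rows and a call in a gated cell for 52, namely 50 rows annotated as functional (46.3% of those) and 2 of 20 pseudogenes. Trav5-4 was called in 6 cells, with a lowest count of 23 and a median of 69 reads. Trav16d-dv11, Trav16n, Trav12-3, Trav13n-4 and Trav6-5 were called in 5 each, the first pair, 97.5% identical, in the same 5 cells, and 8 rows were called in 4 cells each, of which Trav3-1, Trav3-3, Trav14-1 and Trav7-4 had the most reads. By family, Trav7 led with 17 cells, and Trav3 held the largest share of reads (18.3%). Dominant Trav rows numbered 26 in 35 fresh cells and 23 in 36 preserved cells, of which 13 were found in both, 50% and 56.5% of the lists. Trav3-1 was called in 4 of 20 cells at 6 h (20%, 5.73 to 43.7%), with 80 to 645 reads, and in none of the 93 gated cells of other timepoints. It was dominant in all 4, beside Trbv15 in 2, Trbv26 in 1 and Trbv31 in 1. The 70 cells with both chains held 69 different pairs of dominant segments, and the pair of Trav3-1 with Trbv15, in 2 cells of 6 h, was the 1 pair seen more than once. The 2 cells had 384 and 80 reads of Trav3-1 and 386 and 437 reads of Trbv15, and Cd4 had 755 reads in the first and 0 in the second. Joining segments could not add to these pairs, since the 60 Traj rows held 10 reads and the 14 Trbj and 2 Trbd rows held 0.

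Alpha segments differed from beta segments in how far a read of 75 bases, the length the authors trimmed to, could be placed. The libraries were read from both ends, and a window stands for a single mate, so a read pair may be placed where a window is not. For each annotated transcript the share of its 75-base windows found in no other variable segment was computed. All 35 Trbv rows reached 100%, and the median over the matched Trav rows was 54.1%, with a lowest value of 0%. The 39 Trav rows with no such window, 35 of them annotated as functional, held 19 reads in gated cells and were called in 0 cells. The 22 rows below 50% gave 9 called rows, the 49 rows from 50% to below 100% gave 32, and the 18 rows at 100% gave 11. At least 95% identity to another row was found for 84.4% of the matched Trav rows, in 1.49% of their 8128 pairs, and for 0 Trbv rows, where the closest pair stood at 90.6%. Rows without a copy letter accounted for 34 of the called Trav rows and 90 calls, d copies for 10 rows and 26 calls, and n copies for 8 rows and 19 calls. In chromosome order, the last 42 matched rows had 70 calls at a median of 80.04% unique windows, and the first and the middle 43 rows had 32 and 33 calls at medians of 5.10% and 16.3%. Among rows at 100% on both sides, 11 of 18 Trav rows and 21 of 35 Trbv rows were called. What the copies contributed to the lower alpha recovery was not tested.

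**Figure D4:**
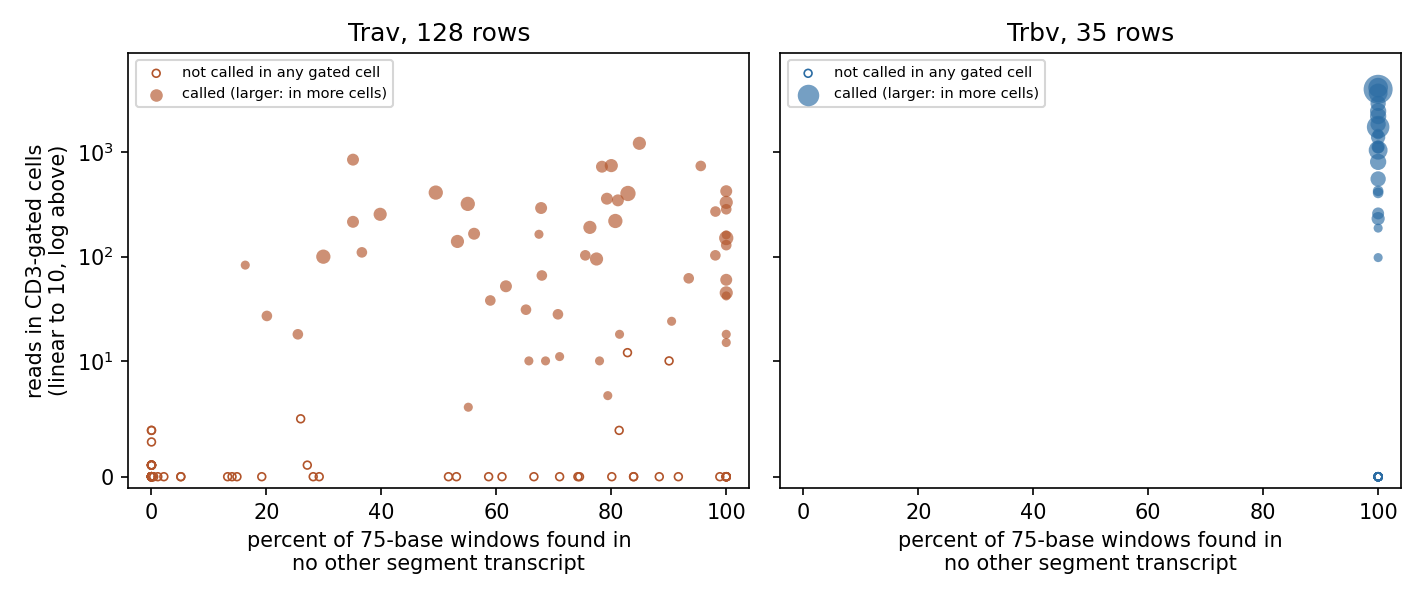
Reads in CD3-gated cells for each matched Trav row (left) and the 35 Trbv rows (right) against the percent of the row's 75-base windows that occur in no other variable segment transcript; the vertical axis is linear to 10 reads and logarithmic above. Filled points were called in at least 1 cell, with area growing with the number of cells, and the 39 Trav rows at 0% are all open.

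The segments of invariant T cells differed in the same measure. Trav11, used by natural killer T cells, had 0% unique windows and 1 read over all cells, and its copy Trav11d had 0 reads, so the file cannot say how many such cells were present. Their usual beta partners were read, with Trbv13-2 as above, Trbv1 in 6 gated cells (87 to 805 reads) and Trbv29 in 1 gated cell, as its dominant Trbv row. These beta segments are used by conventional T cells too. Trav1, used by mucosal-associated invariant T cells, had 100% unique windows and was called in 2 fresh cells. In 1 it was dominant, beside Trbv13-2 with 140 reads, and in the other it had 14 reads. Trbv19, a further partner of that chain, had 0 reads in the 502 cells.

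More than 1 segment per chain was common. Among the 71 cells with a Trav call, 28 had 1 segment, 28 had 2, 11 had 3, 3 had 4 and 1 had 6. Among the cells with a Trbv call, 68 had 1, 29 had 2 and 4 had 3. Thus 43 of 71 cells had at least 2 Trav rows (60.6%, 48.3 to 71.97%), and 33 cells had at least 2 Trbv rows, 32.7% of those with a Trbv call (23.7 to 42.7%). In fresh cells these counts were 24 of 35 and 13 of 52, and in preserved cells 19 of 36 and 20 of 49. Exactly 1 segment of each chain was called in 20 cells, 10 fresh and 10 preserved. The median total count was 757856 in cells with 1 Trav row and 623776 in those with 2 or more, and 703705 and 785376 for Trbv. Merging rows of at least 95% identity left 33 cells with at least 2 Trav groups, and merging by family number left 29, while Trbv stood at 33 and 32. A second row reaching 10% of its chain's reads was present in 37 cells for Trav and in 25 for Trbv.

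The further rows are those called beside the dominant one. Of 64 further Trav calls 22 were of the dominant row's family and 18 were at least 95% identical to it, and they held a median of 17.3% of the chain's reads in the cell (range 1.97 to 50%). In the Trav14-3 set printed above, Trav14d-3-dv8 was dominant in 3 cells of 3 timepoints (fresh, 6 h and day 1), and Trav14-3 was called in the same 3 cells with 14.5%, 33.4% and 25% of the alpha reads. Trav14n-3 was called in 2 of them, with 5.37% (6 h) and 18.3% (day 1). Of 37 further Trbv calls 2 were of the same family, where most families hold a single row, and no pair of Trbv rows reaches 95% identity. These calls held a median of 15.5% of the chain's reads (range 0.487 to 49.3%). The next segment on the chromosome was the further row in 7 of the 37, and in 5 of these 7 the pair was Trbv13-2 as dominant with Trbv12-2, its upstream neighbour. In those 5 cells, of 4 timepoints, Trbv13-2 had 87 to 549 reads. Trbv12-2 held 8.33% of the beta reads in the fresh cell, 9.11% and 29.3% in the cells of 6 h, 38.3% in that of day 1 and 18.3% in that of day 2, which also had a read of Cd79a or C1qb. The reverse order occurred in 1 cell. Trbv12-2 was a further row in 5 other cells too, beside Trbv14 in 2 and beside Trbv12-1, Trbv30 and Trbv13-1 in 1 each, and of these only Trbv13-1 lies next to it. Trbv24, an annotated pseudogene, was called in 4 cells, each time beside a dominant functional segment (Trbv12-2, Trbv16, Trbv13-2 and Trbv31) and with 11.5 to 16.4% of the beta reads. Counts per row do not show whether a transcript is spliced or in frame, so a further row need not be a further receptor chain.

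**Figure D5:**
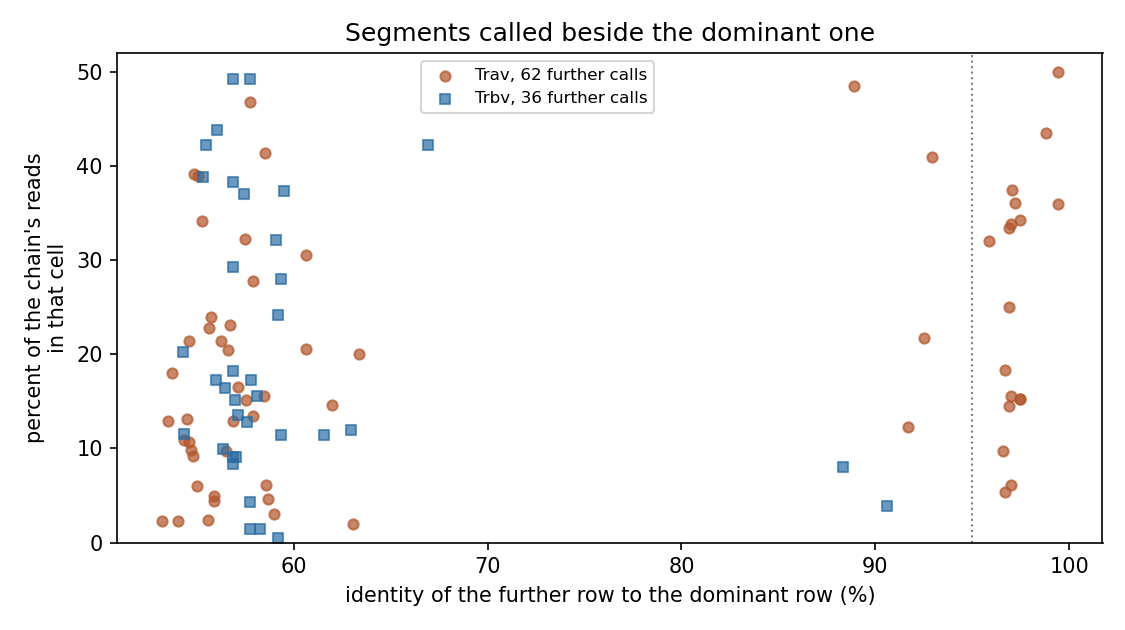
Each segment called beside the dominant one in a CD3-gated cell, by the identity of its annotated exons to those of the dominant row (horizontal axis, percent) and its percent of the chain's reads in that cell (vertical axis), for 62 Trav and 36 Trbv calls, since 3 calls had no alignment long enough. The dotted line is at 95% identity, which 18 Trav calls reach and no pair of Trbv rows can.

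Cd4 and Cd8a, the coreceptor genes, were never read in the same gated cell, and the classes here require at least 5 reads of the gene. Of the 40 cells with Cd4 alone, Trav was called in 33 (82.5%, 67.2 to 92.7%) and Trbv in 39. Of the 12 with Cd8a alone, Trav was called in 6 (50%, 21.1 to 78.9%) and Trbv in 11. Of the 61 with neither at 5 reads, Trav was called in 32 (52.5%, 39.3 to 65.4%) and Trbv in 51. Median total counts of these classes were 715832, 689671 and 706746. Cells with Cd4 alone had 17 different dominant Trbv rows and those with Cd8a alone had 9.

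The other receptor loci were sparse. Trdc, the delta constant gene, reached 5 reads in 6 gated cells, and Trbv was called in 4 and Trav in 3 of them. Gamma constant rows reached 5 reads in 12 gated cells, 11 of which also had a Trbv call and 5 a Trav call. How alike the gamma constant rows are was not computed, and reads may be split among rows that are alike. The 6 gamma variable rows held 2687 reads in 15 cells and the 6 delta variable rows 993 reads in 18 cells, against 33258 for Trbv. Of the 10 Trav rows whose names mark use in delta chains too, 6 were called, in 16 gated cells.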

How the data were processed

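Per the labels and the methods, the authors sorted single Cd45+ kidney cells and made cDNA with a protocol adapted from SmartSeq2. The methods mention no molecular identifiers. Reads were trimmed to 75 bases, and duplicates were removed. The reads were aligned to GRCm38 with STAR and counted with HTSeq in its intersection-strict mode without regard to strand. Versions of STAR and HTSeq: not given in the sources used here. Values as deposited are raw counts of reads, whole and not normalized, for 502 cells, with total counts on genes of 1759 to 1895431 and a median of 695188. The 97 spike-in and vector rows (0.140% of counts) were left out.

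Segments were called at 5 reads or more. Cells were gated by at least 2 of 3 CD3 genes, and classes outside the gate followed fixed markers. Doublets were not called. Summed counts of gated cells were scaled to CPM and compared, as log2 ratios over genes that reached 50 counts in each sum, for timepoints of 5 gated cells or more. With 1 sample a timepoint no test was run, and exact Clopper-Pearson and Poisson intervals (95%) cover counting error only. Where a count is 0, the limit is 3 counts of the total. Annotation and sequences came from GENCODE M21. Identity was taken over global alignments without overhanging ends. The ratio step was tested on simulated data. The named segments were the 10 Trav and 10 Trbv rows called in the most gated cells (ties by summed reads), the rows of invariant T cells and their partners, the highest and lowest ratio of each comparison and a receptor list; Trbv24, the Trav14-3 set, Trbv14, Trav6-5 outside the gate, Trbv26, Trbv4, Trbv12-1, Trbv23 and Trbv30 were named after their values were seen. Members and lists were chosen with earlier results of these data known. Python 3.11.15, pandas 2.3.3, scipy 1.17.1, Biopython 1.88, edgeR 4.0.16 and DESeq2 1.42.0 were used, the last pair only for alternative scaling of the deposited counts.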

Additional observations from a re-analysis of the deposited data

How the results depend on the processing

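Of the values recomputed under other settings 34 moved past, and the others stayed within, their tolerance (the counting interval of a share, 0.5 on the log2 scale, 1.5 times for a percent of genes). The only summed chain ratio past 2-fold, that of Trav at day 3, kept its direction. Smaller ones turned: Trbv at 6 h (0.22) to -0.08 with TMM and Trav at day 1 (-0.01) to 0.13 with DESeq2 size factors. Trbv at day 3 (-0.91) turned to 0.20 without gated cells that held gamma constant genes or Ncr1. Of single segments past 2-fold, Trbv13-2 (1.41) and Trbv23 (1.95) at 6 h turned to -0.03 and -0.17 against fresh cells of the same pool. Trav14-1 (-1.69, 51 reads at 6 h) also turned, since it had 0 reads in those fresh cells and so no ratio. The cause of the shifts was not tested. With 1 read in place of 5 the fresh Trav share and the share with both chains rose to 76.8% each, and the share of gated cells with at least 2 Trav rows became 55.8%, against 27.4% with 10 reads, 25.7% with rows merged by family and 38.1% as reported. With 10 reads, 0% of myeloid cells had a called segment. Fresh cells of pool IM793 alone gave 27.3% for Trav and for both chains and 72.7% for Trbv, and against fresh cells of the same pool the log2 ratio of summed Trav was 2.25 at 6 h and 2.13 at day 2. A gate on all 3 CD3 genes gave a Trbv share of 100% in fresh cells and at 6 h, day 1, day 3 and day 4, and a gate on Cd3e alone gave 100% at 6 h and day 3. Leaving out gated cells with Cd79a or C1qb, chosen after the data were seen, as was merging at 95% identity, gave a Trbv share of 100% at day 3. Without the cell with the most reads of the chain, also chosen after the data were seen, the log2 ratio of summed Trav was -0.98 at day 1 and -3.59 at day 3, and that of Trbv -1.55 and -1.66. Without gated cells that held gamma constant genes or Ncr1, again chosen after the data were seen, the Trbv share was 100% at 6 h and day 3, the log2 ratio of summed Trbv -1.57 at day 1 and 0.20 at day 3, and that of Trav -1.61 at day 3. Against fresh cells of the same pool without the fresh cell with the most reads of the chain, a choice made after seeing the data, Trav was 3.74 and 3.62 and Trbv 0.78 and 1.15 at 6 h and day 2. After thinning to 200000 counts per cell, after which 9 gated cells were too shallow or no longer in the gate, the day 4 share was 0% for Trav and for both chains, over 3 cells. Days 1, 3 and 4 hold 6, 8 and 3 gated cells, which limits what their shares can show. No paired analysis was possible because each timepoint is 1 sample and no result comes from a test.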
